A study of Mus musculus with 12 samples.

Results

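Receptors of the TNF receptor superfamily that costimulate T cells or let them die were followed in CD4+ T cells of mouse spleen during the first hours of IL-12. The set holds 10 genes taken by symbol: Tnfrsf1b, Tnfrsf4, Tnfrsf8, Tnfrsf9, Tnfrsf14, Tnfrsf18, Tnfrsf25, Cd27, Cd40 and Fas. All 10 were measured, each by 1 probe set, among 19752 genes on 12 Affymetrix Mouse Gene 1.0 ST arrays. The cells came from male C57BL/6 mice aged 6 weeks with no genetic change named, and other spleen cells had been taken away with antibodies. All cells had been activated for 48 h with beads against CD3 and CD28. IL-12 at 100 U/ml was then given for 2 h (5 arrays) or 8 h (4 arrays), 2 arrays are of untreated cells at 2 h, and 1 is labelled baseline with no time. There are no untreated cells at 8 h, so IL-12 and time in culture cannot be told apart there. Whether the arrays of a group stem from separate mice or cultures is not said in the labels. The p-values below therefore cover the spread among these arrays alone, and that spread may be technical.

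Receptors of this family are trimeric surface proteins that bind ligands of the TNF family. Those with a death domain, such as Fas and DR3 (Tnfrsf25), recruit FADD or TRADD. Others, such as OX40 (Tnfrsf4), 4-1BB (Tnfrsf9), GITR (Tnfrsf18), CD30 (Tnfrsf8), HVEM (Tnfrsf14), TNF receptor 2 (Tnfrsf1b), CD27 and CD40, recruit TRAF proteins and so switch on NF-kappaB. In T cells most of them are induced or raised by T cell receptor and CD28 signals, while CD40 is best known on B cells, dendritic cells and macrophages, where it receives the CD40 ligand of helper T cells.

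The titles number the arrays, and 2 runs of numbers stood apart. IL-12 arrays carry 2 to 4 or 5 and 6, while untreated arrays carry 7 and 8 and the baseline array 5; no label says what a number means. The term for the run was therefore kept in the model, and changes within each run are given beside the pooled ones. By its values the baseline array, numbered 5, was no nearer to its own run: its median correlation across genes, which are not independent replicates, was 0.989 there and 0.993 to the arrays of the other run. Of T cell markers, 9 of 9 measured lay above the median of all genes (log2 7.37), with Cd3e between 12.44 and 12.91 and Cd4 between 11.51 and 12.07 on the log2 intensity scale. Of markers of other cells, 3 of 9 for B cells, 4 of 12 for macrophages and monocytes, 3 of 10 for dendritic cells, 1 of 2 for CD8 T cells and 1 of 7 for NK cells had a mean above that median. The B cell gene Ms4a1 reached 6.58 to 8.16, Cd8a 7.00 to 7.35, the dendritic cell gene Itgax 6.08 to 7.25 and the myeloid gene Lyz2 6.66 to 9.93. Regulatory T cell genes were present, with Foxp3 between 9.01 and 10.02. Fewer cells of a type and less RNA per cell cannot be told apart in such samples.

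**Figure D1:**
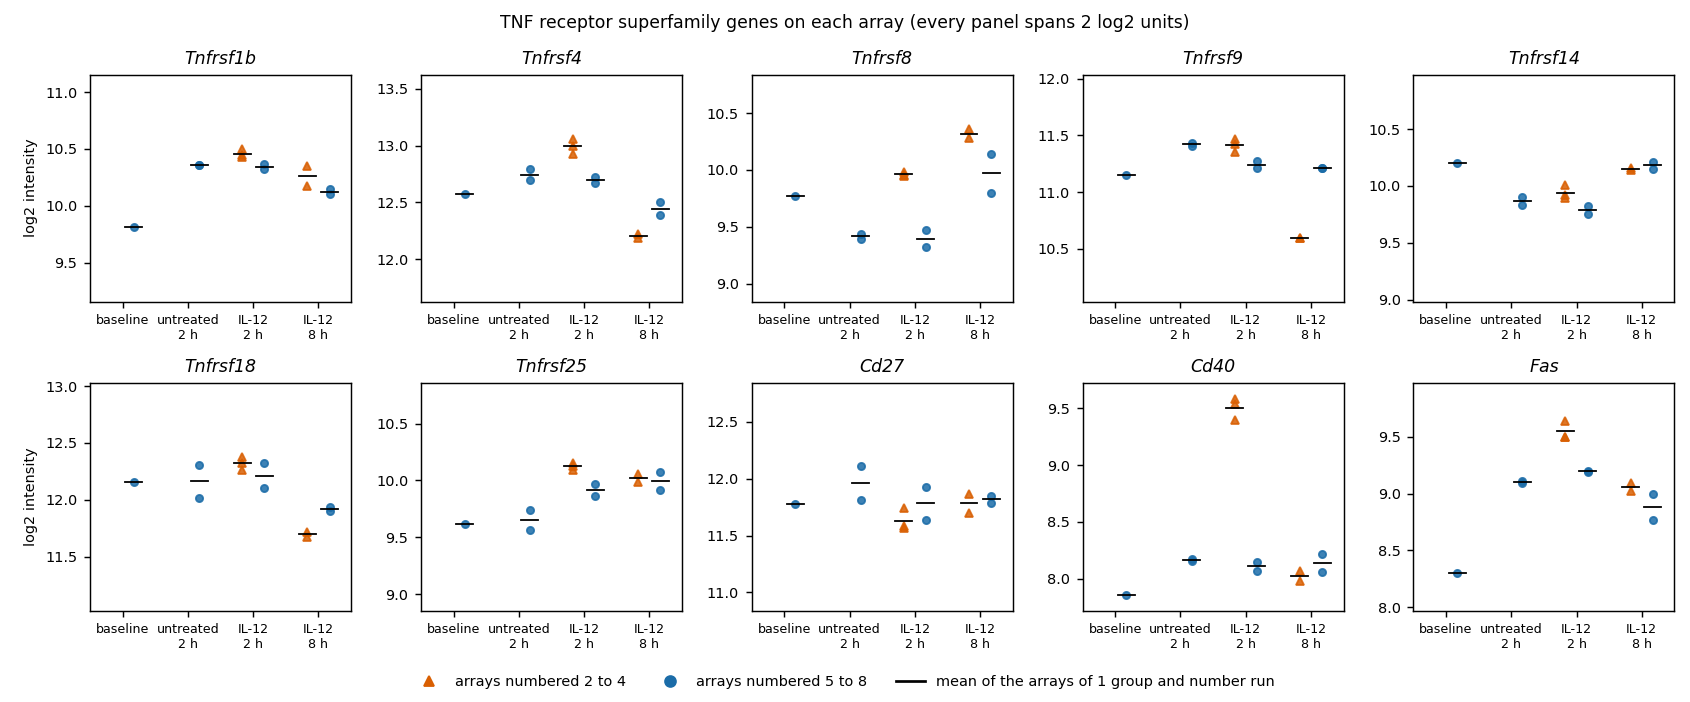
Log2 intensity of the 10 receptors on each of the 12 arrays, by group; triangles are arrays numbered 2 to 4, circles arrays numbered 5 to 8, and bars the mean of the arrays of 1 group and run. Cd40 stands between 9.40 and 9.58 in the 3 IL-12 2 h arrays numbered 2 to 4 and at or below 8.22 in the other 9 arrays.

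All 10 receptors were above the median of all genes on every array; the lowest value was the 7.86 of Cd40 in the baseline array. Between 2 h and 8 h of IL-12, 6 of the 10 fell (Tnfrsf4, Tnfrsf18, Tnfrsf9, Tnfrsf1b, Cd40 and Fas), 2 rose (Tnfrsf8 and Tnfrsf14), and Tnfrsf25 and Cd27 did not pass. Among all genes 6.36% fell and 6.27% rose in this comparison. The median log2 change of the 10 was -0.31, against -0.01 over all genes. With the title number as a block, over the 4 pairs of arrays numbered 2, 3, 5 and 6, the called receptors were 4: Tnfrsf4, Tnfrsf18 and Fas fell and Tnfrsf8 rose; the same fit called 6.31% of all genes, against 12.6% without the block. Without the IL-12 8 h array numbered 2 the count was 5, and 8.99% of all genes were called. Within numbers 2 to 4 alone 5 fell and 1 rose, against 5.67% and 6.05% of all genes. Within numbers 5 to 8, 0 passed as lower and 2 rose, against 3.58% and 2.03% of all genes. At an unadjusted p under 0.05 limma had 4 receptors lower there, and 9.91% of all genes. These within-run tests borrow the spread of all arrays; fitted on arrays numbered 5 to 8 alone, 0 receptors and 1.84% of all genes were called.

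OX40 and GITR, receptors that sustain activated and regulatory T cells, are encoded side by side on chromosome 4 with no other protein-coding gene between them. Tnfrsf4 had an intensity of 6066 in the baseline array and 7105 and 6642 in the untreated arrays. In IL-12 2 h arrays it was 7793, 8182 and 8532 in numbers 2 to 4 and 6736 and 6508 in numbers 5 and 6. At 8 h it was 4757 and 4659 in numbers 2 and 3 and 5359 and 5787 in numbers 5 and 6. Every 8 h array thus lay below every other array, and the gap to 2 h was wider in the lower numbers. The gene fell 1.46-fold from 2 h to 8 h (log2 -0.55 ± 0.09 SE, limma adjusted p = 0.00132). Within numbers 2 to 4 the change was -0.79 ± 0.07 (adjusted p = 1.26e-05), and within 5 to 8 it was -0.25 ± 0.08 (adjusted p = 0.0975).

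Tnfrsf18 had an intensity of 4589 in the baseline array and of 5086 and 4154 in the untreated arrays. At 2 h of IL-12 it lay at 4890, 5114 and 5337 in numbers 2 to 4 and at 5125 and 4391 in numbers 5 and 6. By 8 h it was 3378 and 3265 in numbers 2 and 3 and 3824 and 3918 in numbers 5 and 6. Again the 4 arrays at 8 h were the lowest of the 12. It fell 1.39-fold (log2 -0.47 ± 0.08, adjusted p = 0.00177), by -0.62 ± 0.10 within numbers 2 to 4 (adjusted p = 0.00075) and -0.29 ± 0.10 within 5 to 8 (adjusted p = 0.13). Over the 12 arrays Tnfrsf4 and Tnfrsf18 correlated at r = 0.932, a description over arrays that share the same groups and runs.

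Bases upstream of the start site are shown for these neighbours, because they fell together. The sequences are the 250 bases before the start site from RefSeq, build GRCm38.p6, which held 11 promoters for 9 of the 10 genes. Capitals mark every match, on either strand, to the AP-1 motif TGANTCA, the STAT motif TTCNNNGAA or the NF-kappaB consensus. Of 32851 RefSeq promoters of the same length, 6.75%, 7.02% and 7.25% hold them. A match is a run of letters and says nothing of binding.
Tnfrsf4 (chr4:156013445-156013694, plus strand): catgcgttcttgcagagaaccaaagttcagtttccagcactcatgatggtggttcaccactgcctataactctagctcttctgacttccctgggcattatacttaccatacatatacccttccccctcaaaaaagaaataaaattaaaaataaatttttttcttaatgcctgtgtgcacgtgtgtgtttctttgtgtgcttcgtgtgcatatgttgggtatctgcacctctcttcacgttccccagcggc
Tnfrsf18 (chr4:156026072-156026321, plus strand): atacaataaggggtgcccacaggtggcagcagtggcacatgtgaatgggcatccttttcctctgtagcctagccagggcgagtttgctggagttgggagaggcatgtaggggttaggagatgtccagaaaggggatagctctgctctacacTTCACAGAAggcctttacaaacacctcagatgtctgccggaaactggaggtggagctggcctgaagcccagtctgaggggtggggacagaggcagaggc
The windows differ in composition, with 42.8% G and C before Tnfrsf4 and 56% before Tnfrsf18. Only that of Tnfrsf18 holds a match, to the STAT motif, 99 bases before the start site.

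4-1BB, a costimulator of activated T cells, differed most plainly between the runs at 8 h. Tnfrsf9 had an intensity of 2265 in the baseline array and 2713 and 2756 in the untreated arrays. At 2 h of IL-12 it was 2616, 2841 and 2732.5 in numbers 2 to 4 and 2364 and 2462 in numbers 5 and 6. At 8 h, arrays 2 and 3 had 1552 and 1553, while arrays 5 and 6 had 2371 and 2362. Arrays 2 and 3 at 8 h lay far below all 2 h arrays, while arrays 5 and 6 lay beside the lowest of them. Pooled over runs the gene fell 1.37-fold (log2 -0.46 ± 0.12, adjusted p = 0.0196; adjusted p = 0.131 with the number as a block). The change was -0.81 ± 0.07 within numbers 2 to 4 (adjusted p = 5.71e-06) and -0.03 ± 0.08 within 5 to 8 (adjusted p = 0.907). Leaving out the IL-12 2 h array numbered 4 or either IL-12 8 h array numbered 2 or 3 also ended the pooled call.

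Tnfrsf9 has a pair of promoters in RefSeq, and the downstream window is shown because it alone among the 11 holds all 3 motifs.
Tnfrsf9 (chr4:150927749-150927998, plus strand): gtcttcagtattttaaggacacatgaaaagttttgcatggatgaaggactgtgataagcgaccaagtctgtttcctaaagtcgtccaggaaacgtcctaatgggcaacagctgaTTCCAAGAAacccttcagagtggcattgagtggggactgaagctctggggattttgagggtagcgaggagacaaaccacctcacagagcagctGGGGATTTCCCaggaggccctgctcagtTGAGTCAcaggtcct
From left to right the capitals are a STAT motif 136 bases before the start site, a pair of overlapping NF-kappaB matches from 43 bases before it, and an AP-1 motif 15 bases before it. The upstream window of the gene holds 0 matches.

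Cd40 showed the largest contrast between the runs. Its intensity was 232 in the baseline array and 289 and 287 in the untreated arrays. In IL-12 2 h arrays 2, 3 and 4 it was 763, 677 and 746, whereas arrays 5 and 6 of that group had 269 and 285. At 8 h it was 252, 269, 298 and 266 in numbers 2, 3, 5 and 6. High Cd40 was thus seen in 3 arrays of 1 group and 1 run. Within numbers 2 to 4 it fell 2.80-fold from 2 h to 8 h (log2 -1.48 ± 0.08, adjusted p = 1.01e-07), and within numbers 5 to 8 the change was 0.02 ± 0.09 (adjusted p = 0.933). The pooled change of -0.80 ± 0.21 (adjusted p = 0.0226; adjusted p = 0.144 with the number as a block) describes neither run. Leaving out any of the arrays numbered 2, 3 or 4 of either IL-12 group ended the pooled call. RefSeq promoters held no entry for Cd40.

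Cells that carry CD40 protein are the natural comparison, and their markers were summed as intensity in the same arrays. In numbers 2 to 4, the 9 B cell markers summed to between 1795 and 1938 at 2 h and between 1642 and 1728 at 8 h. The 10 dendritic cell markers summed to 2088 to 2154 at 2 h and 1787 to 1823 at 8 h, and the 12 macrophage and monocyte markers to 1639 to 1731 and 1524 to 1642. The sums of the other arrays follow in the same order of B cell, dendritic cell and macrophage markers. In numbers 5 and 6 they were 1388 to 1579, 1865 to 1899 and 2452 to 3089 at 2 h. At 8 h those numbers had 1466 to 1590, 2058 to 2073 and 2562 to 2761. The untreated arrays had 1423 to 1433, 1901 to 1962 and 3250 to 3404, and the baseline array 1910, 1932 and 1991. The dendritic and B cell sums were higher at 2 h than at 8 h in numbers 2 to 4, and their part in the result was not tested. With the macrophage marker mean in the model the pooled Cd40 change was -0.72 (adjusted p = 0.0956), and 7.61% of all genes were called.

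The difference between runs in the change from 2 h to 8 h was itself tested. It passed for 3 of 10 receptors, against 1.79% of all genes. The change in numbers 2 to 4 minus that in 5 to 8 was -1.51 ± 0.12 for Cd40 (limma adjusted p = 4.35e-05), -0.79 ± 0.10 for Tnfrsf9 (adjusted p = 0.00196) and -0.54 ± 0.11 for Tnfrsf4 (adjusted p = 0.0252). For the other 7 it lay between -0.33 and 0.12, with adjusted p from 0.326 to 0.967. The Tnfrsf4 call was lost in 6 of the fits that left out 1 array. Regulatory T cells carry much OX40, GITR and 4-1BB, and of 12 genes of these cells 2 passed the same test, both lower, while 10 did not. Foxp3 and the integrin gene Itgae had run differences of -0.61 ± 0.14 (adjusted p = 0.049) and -0.63 ± 0.11 (adjusted p = 0.0128). The summed intensity of the 12 regulatory T cell genes was 19098 to 20007 at 2 h and 18484 to 18487 at 8 h in numbers 2 to 4. In numbers 5 and 6 it was 19843 to 21227 at 2 h and 20698 to 21164 at 8 h. Of other cell markers, 1 of 10 for dendritic cells passed the test of the run difference, Fscn1 (-0.80 ± 0.13, limma adjusted p = 0.00796). So did 1 of 7 for NK cells, Eomes (-0.84 ± 0.16, adjusted p = 0.0151). For T cells, B cells, macrophages and CD8 T cells 0 passed. The part of regulatory T cells and of these other cells in the receptor changes was not tested.

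**Figure D2:**
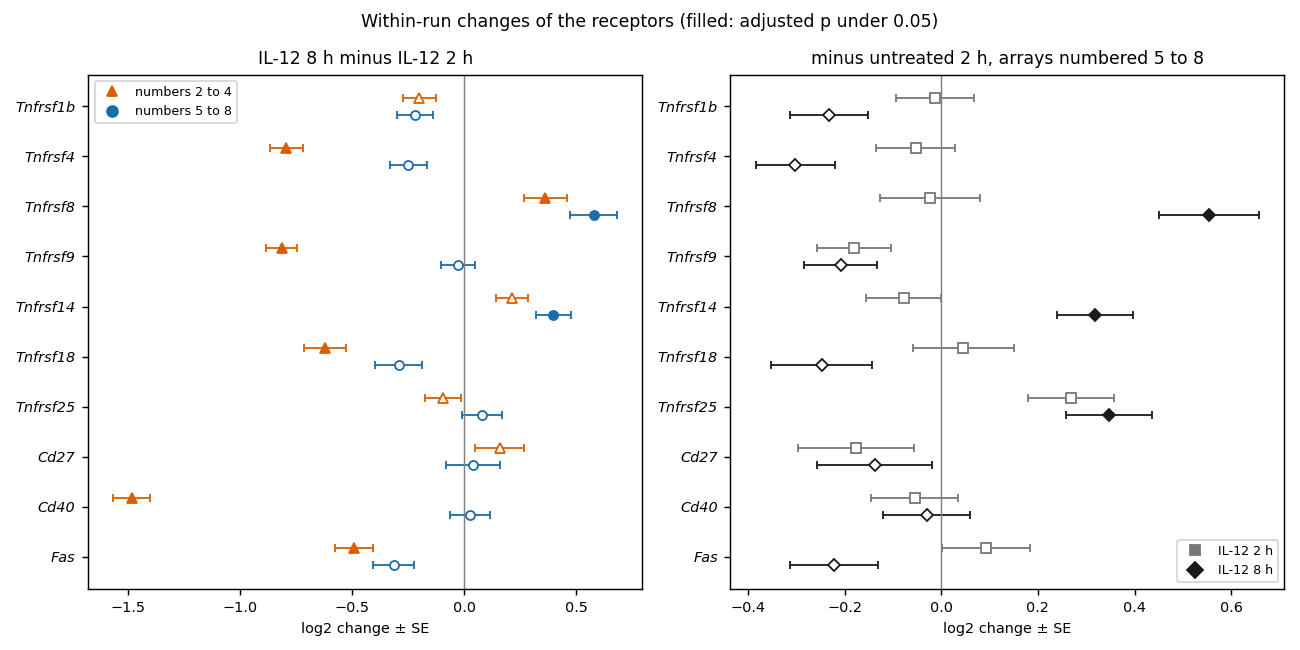
Log2 change ± SE of each receptor from the fit with means of each group within each run; left, IL-12 8 h minus 2 h in numbers 2 to 4 (triangles) and 5 to 8 (circles); right, IL-12 2 h (squares) and 8 h (diamonds) minus untreated 2 h in numbers 5 to 8. Filled points have an adjusted p under 0.05: the falls of Tnfrsf4, Tnfrsf9, Tnfrsf18, Cd40 and Fas are filled in numbers 2 to 4. These 5 are open in 5 to 8, where Tnfrsf14 is filled, and Tnfrsf8 is filled in both runs. Against untreated cells Tnfrsf8, Tnfrsf14 and Tnfrsf25 are filled at 8 h, and all points are open at 2 h.

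Fas, the death receptor that ends immune responses by apoptosis, fell as well. Its intensity was 315 in the baseline array and 554 and 547 in the untreated arrays. At 2 h of IL-12 it was 798, 724 and 722 in numbers 2 to 4 and 585 and 588 in numbers 5 and 6, and at 8 h it was 518, 545, 512 and 435 in numbers 2, 3, 5 and 6. All IL-12 2 h arrays lay above, and all 8 h arrays below, the untreated ones. From 2 h to 8 h Fas fell 1.33-fold (log2 -0.41 ± 0.07, adjusted p = 0.000949; adjusted p = 0.0174 with the number as a block). Within runs the changes were -0.49 ± 0.08 (adjusted p = 0.00161) in numbers 2 to 4 and -0.31 ± 0.09 (adjusted p = 0.064) in 5 to 8. Same-numbered arrays fell in 4 of 4 pairs, and the run difference did not pass (-0.18 ± 0.12, adjusted p = 0.605).

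The Fas window is shown because it pairs 2 of the motifs, as do those of Tnfrsf8 and Tnfrsf25. The downstream window of Tnfrsf25, not shown, has an NF-kappaB match 28 bases and a STAT motif 16 bases before the start site.
Fas (chr19:34290409-34290658, plus strand): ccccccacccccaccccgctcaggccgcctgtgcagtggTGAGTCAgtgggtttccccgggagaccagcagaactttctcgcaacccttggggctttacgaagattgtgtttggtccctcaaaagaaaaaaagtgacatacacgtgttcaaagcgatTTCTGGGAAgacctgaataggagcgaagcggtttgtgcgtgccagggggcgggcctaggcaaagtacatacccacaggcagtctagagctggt
The capitals are an AP-1 motif 211 bases and a STAT motif 93 bases before the start site.

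TNF receptor 2, which T cells use to survive and expand under TNF, and CD30, a marker of strong activation, are also neighbours on chromosome 4, yet they went opposite ways. Tnfrsf1b had an intensity of 898 in the baseline array, 1310 and 1317 in the untreated arrays, between 1281 and 1444 at 2 h and between 1099 and 1301 at 8 h. It fell 1.16-fold from 2 h to 8 h (log2 -0.21 ± 0.05, adjusted p = 0.0218; adjusted p = 0.0937 with the number as a block). The changes within runs were alike, -0.20 ± 0.07 (adjusted p = 0.108) and -0.22 ± 0.08 (adjusted p = 0.147), and neither passed. Leaving out the IL-12 2 h array numbered 3 or 5 or the 8 h array numbered 2 ended the call.

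Tnfrsf8 had an intensity of 872 in the baseline array and 672 and 694 in the untreated arrays. At 2 h of IL-12 it was 1008, 998.5 and 988 in numbers 2 to 4 and 708 and 638 in numbers 5 and 6. At 8 h it was 1247 and 1319 in numbers 2 and 3 and 890 and 1130 in numbers 5 and 6. Each run rose from its own level, and the lower numbers were higher at both times. The gene rose 1.38-fold from 2 h to 8 h (log2 0.46 ± 0.08, adjusted p = 0.00113; adjusted p = 0.0201 with the number as a block). It rose within both runs, by 0.36 ± 0.09 (adjusted p = 0.0245) and 0.58 ± 0.10 (adjusted p = 0.00567). It was the only receptor of the 10 to pass within each run. Fitted on arrays numbered 5 to 8 alone, its change of 0.58 did not pass (adjusted p = 0.0537); without the run term its pooled change did not pass (0.41, adjusted p = 0.184).

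Both upstream windows of this pair are shown for the contrast between them.
Tnfrsf1b (chr4:145246871-145247120, minus strand): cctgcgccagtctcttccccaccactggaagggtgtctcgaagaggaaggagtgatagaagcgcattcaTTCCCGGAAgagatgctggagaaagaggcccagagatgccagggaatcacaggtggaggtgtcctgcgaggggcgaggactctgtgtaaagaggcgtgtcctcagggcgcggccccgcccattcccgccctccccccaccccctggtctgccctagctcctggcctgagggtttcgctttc
Tnfrsf8 (chr4:145315165-145315414, minus strand): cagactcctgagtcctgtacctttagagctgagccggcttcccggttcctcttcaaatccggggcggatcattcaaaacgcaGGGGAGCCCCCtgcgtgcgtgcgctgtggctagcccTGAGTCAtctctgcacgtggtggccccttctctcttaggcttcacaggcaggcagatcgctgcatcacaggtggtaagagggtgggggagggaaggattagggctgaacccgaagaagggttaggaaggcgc
Tnfrsf1b has a STAT motif 181 bases before its start site. Tnfrsf8 has overlapping NF-kappaB matches from 168 bases and an AP-1 motif 132 bases before its own. Over the 11 windows, 3 held the AP-1 motif, 5 the STAT motif and 3 the NF-kappaB consensus.

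HVEM, which binds LIGHT (Tnfsf14) and the inhibitory receptor BTLA, rose as well. Tnfrsf14 had an intensity of 1180 in the baseline array and 953 and 909 in the untreated arrays, between 861 and 1028 at 2 h and between 1129 and 1188 at 8 h. All 8 h arrays stood above all 2 h arrays. The rise was 1.23-fold (log2 0.30 ± 0.06, adjusted p = 0.00418; adjusted p = 0.0511 with the number as a block). It passed within numbers 5 to 8 (0.40 ± 0.08, adjusted p = 0.00969), though not when those arrays were fitted alone (adjusted p = 0.0727), while numbers 2 to 4 gave 0.21 ± 0.07 (adjusted p = 0.0788).

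DR3 and CD27 changed least between 2 h and 8 h. Tnfrsf25, whose ligand TL1A acts with IL-12 and IL-18 on T cells, had an intensity of 785 in the baseline array and 853 and 754 in the untreated arrays. It lay between 929 and 1135 at 2 h of IL-12 and between 969 and 1074 at 8 h, above both untreated arrays in all 9 IL-12 arrays. Its change from 2 h to 8 h was -0.02 ± 0.06 (adjusted p = 0.929). Cd27, a costimulator that naive T cells already carry, lay at 3522 in the baseline array, 4418 and 3595 in untreated arrays, 3036 to 3906 at 2 h and 3337 to 3748 at 8 h. Its groups overlapped, and its change from 2 h to 8 h was 0.10 ± 0.08 (adjusted p = 0.504).

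The comparison of IL-12 2 h with untreated 2 h sets treated beside untreated cells at the same hour. None of the 10 receptors passed in limma's test, where 0.0709% of all genes did; at an unadjusted p under 0.05, 1 was higher and 0 lower, against 2.73% and 2.19% of all genes. That gene was Tnfrsf25, 1.24-fold higher (log2 0.32 ± 0.09, adjusted p = 0.639), with 0.27 ± 0.09 within numbers 5 to 8 (adjusted p = 0.734). The other 9 had changes between -0.21 for Cd27 and 0.36 for Cd40, all with an adjusted p of 0.999. Within numbers 5 to 8, the only run with untreated arrays, 0 of 10 passed against 0.101% of all genes, and at an unadjusted p under 0.05 limma had 1 higher and 1 lower, against 3% and 2.19% of all genes. Cd40 was at -0.06 ± 0.09 there, and the arrays with high Cd40 have no untreated arrays in their run. For Tnfrsf9 the change within that run was -0.18 ± 0.08 and for Fas 0.09 ± 0.09.

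At 8 h against untreated 2 h, 1 receptor rose and 0 fell, against 1.04% and 2.13% of all genes. It was Tnfrsf8, 1.41-fold higher (log2 0.50 ± 0.10, adjusted p = 0.0172). The groups did not overlap for 8 of 10 receptors: 3 were higher in every 8 h array than in any untreated one (Tnfrsf8, Tnfrsf14 and Tnfrsf25) and 5 lower (Tnfrsf1b, Tnfrsf4, Tnfrsf9, Tnfrsf18 and Fas). Among all genes 11.8% were higher and 11.8% lower without overlap. Tnfrsf4 had a change of -0.45 ± 0.13 (adjusted p = 0.0744), Tnfrsf25 0.30 ± 0.09 (adjusted p = 0.094) and Tnfrsf14 0.27 ± 0.08 (adjusted p = 0.102). Without the run term the Tnfrsf8 change was 0.73 (adjusted p = 0.103), and with the macrophage marker mean in the model 0.39 (adjusted p = 0.563). These fits called 1.23% and 0.415% of all genes. Leaving out untreated array 7 or 8 ended the Tnfrsf8 call and left 0 receptors called, with 1.52% and 1.35% of all genes called. Leaving out the 8 h array numbered 5 or 6 gave 2 receptors, 1 of them lower, with 2.14% and 2.68% of all genes. Within numbers 5 to 8 the receptors called were 3, all higher, against 1.56% of all genes higher and 2.7% lower: Tnfrsf8 at 0.55 ± 0.10 (adjusted p = 0.00809), Tnfrsf25 at 0.35 ± 0.09 (adjusted p = 0.0443) and Tnfrsf14 at 0.32 ± 0.08 (adjusted p = 0.0366). With arrays numbered 5 to 8 fitted alone, without the spread of the others, none of these 3 passed: the adjusted p was 0.0696, 0.196 and 0.168 in limma, and 1.62% of all genes were called. Both comparisons with untreated cells share the same 2 control arrays.

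Untreated cells at 2 h were set against the baseline array, whose spread is taken from the other groups. Fas was 1.75-fold higher (log2 0.80 ± 0.12, adjusted p = 0.000732) and Tnfrsf1b 1.46-fold higher (0.55 ± 0.10, adjusted p = 0.00281). These 2 rises and 0 falls stand against 6.28% and 3.96% of all genes. Tnfrsf14 (-0.34 ± 0.11, adjusted p = 0.0566) and Tnfrsf8 (-0.35 ± 0.14, adjusted p = 0.132) lay lower without passing, and the other 6 had changes between 0.00 and 0.31. Leaving out the 8 h array numbered 6 gave 4 called, 2 of them lower, with 11.2% of all genes. Markers of other cells moved in this comparison too: Lyz2 rose (2.13 ± 0.32, adjusted p = 0.0007) and Ms4a1 fell (-1.44 ± 0.12, adjusted p = 7.43e-06), with 3 of 12 macrophage markers higher and 3 of 9 B cell markers lower. With the macrophage marker mean in the model Fas had 0.64 (adjusted p = 0.593) and Tnfrsf1b 0.62 (adjusted p = 0.506), and without the run term, where their sizes were the same, the adjusted p was 0.0868 and 0.0692. These fits called 0.132% and 0.582% of all genes, against 10.2% in the main fit. With so few genes called, the fit with the macrophage mean cannot decide the part of macrophages, and that of B cells was not tested.

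The run term passed for 3 receptors, all with a higher estimate in numbers 2 to 4, against 11.8% of all genes higher and 12.5% lower. They were Tnfrsf8 (0.47 ± 0.08, adjusted p = 0.000478), Fas (0.27 ± 0.07, adjusted p = 0.00919) and Cd40 (0.71 ± 0.21, adjusted p = 0.0256). The Cd40 value does not describe both times. At 2 h its mean log2 was 9.51 in numbers 2 to 4 and 8.11 in 5 and 6, but at 8 h it was 8.02 and 8.14. The Cd40 call was lost when any IL-12 2 h array was left out. Markers of other cells went with the run too, and only the macrophage markers were put in a fit. Of 9 B cell markers, a cell type that carries CD40, 4 were higher in numbers 2 to 4 and 0 lower, with Ms4a1 at 1.03 ± 0.07 (adjusted p = 5.2e-07). Of 12 regulatory T cell genes 6 were lower and 0 higher, and of 10 dendritic cell markers 2 were higher and 1 lower. Of 12 macrophage and monocyte markers 9 were lower and 1 higher, summing to between 1524 and 1731 in numbers 2 to 4 and between 1991 and 3404 in the rest. With their mean in the model 0 receptors were called for the run, where the same test called 0 of all genes. The run values were then 1.42 for Cd40, 0.46 for Fas and 0.17 for Tnfrsf8. Their mean log2 was 6.59 to 6.7 in numbers 2 to 4 and 6.88 to 7.38 in the rest. It nearly repeats the run, so that fit cannot decide the part of macrophages.

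The ligands of these receptors and Btla, which binds HVEM, make a list of 12 genes that were mostly lower at 8 h than at 2 h. Of the 12 measured, 8 fell, 0 rose and 4 did not pass, with a median log2 change of -0.79. Among all genes 6.36% fell and 6.27% rose. Cd40lg, the helper signal to CD40, fell by -1.41 ± 0.17 (adjusted p = 0.00011), Tnfsf14, which encodes LIGHT, by -1.01 ± 0.10 (adjusted p = 2.13e-05), Fasl, the death ligand of Fas, by -0.88 ± 0.09 (adjusted p = 2.36e-05) and Tnf by -0.89 ± 0.09 (adjusted p = 3.76e-05). The ligands of OX40, GITR and CD27 did not pass: Tnfsf4 had 0.03, Tnfsf18 0.02 and Cd70 -0.05. Within numbers 5 to 8, 8 genes of the list fell, against 3.58% of all genes, with a median of -0.47. Cd40lg had -2.02 ± 0.13 there (adjusted p = 1.62e-06) and -0.91 ± 0.12 within 2 to 4 (adjusted p = 0.000216). The run difference in limma passed as lower for 2 of the 12 and higher for 1, against 1.79% of all genes. It was -1.23 ± 0.13 for Lta (adjusted p = 0.000399), -0.82 ± 0.17 for Tnfsf8 (adjusted p = 0.0242) and 1.11 ± 0.18 for Cd40lg (adjusted p = 0.00631). Tnfsf8, the CD30 ligand, fell (-0.98 ± 0.14, adjusted p = 0.000341) while its receptor gene Tnfrsf8 rose, and Btla fell (-0.69 ± 0.10, adjusted p = 0.000327) while Tnfrsf14 rose.

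Counts of signalling genes downstream stand against 6.36% of all genes lower and 6.27% higher. Of 14 measured adaptor and death signalling genes 7 fell, 2 rose and 5 did not pass (median -0.18). Birc3, a ubiquitin ligase of TRAF complexes, fell by -0.53 ± 0.06 (adjusted p = 5.3e-05), Tank by -0.39 ± 0.06 (adjusted p = 0.000572), Traf6 by -0.53 ± 0.08 (adjusted p = 0.000943) and the adaptor gene Traf4 by -0.44 ± 0.09 (adjusted p = 0.00381). Of 13 NF-kappaB pathway genes 10 fell and 0 rose (median -0.60). The inhibitor genes Nfkbid (-1.59 ± 0.08, adjusted p = 3.38e-08), Tnfaip3 (-1.06 ± 0.07, adjusted p = 7.21e-07) and Nfkbia (-0.75 ± 0.07, adjusted p = 1.52e-05) and the subunit gene Rel (-1.10 ± 0.08, adjusted p = 9.59e-07) led them. Within numbers 5 to 8 the falls were 2 of 14 and 7 of 13, against 3.58% of all genes. Of the 18 other genes of the receptor superfamily 2 rose, 0 fell and 16 did not pass, with a median of -0.03; they were Tnfrsf1a, the death domain receptor of TNF (0.24 ± 0.05, adjusted p = 0.00788), and Tnfrsf26 (0.28 ± 0.07, adjusted p = 0.0142). Over all genes the median was -0.01.

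**Figure D3:**
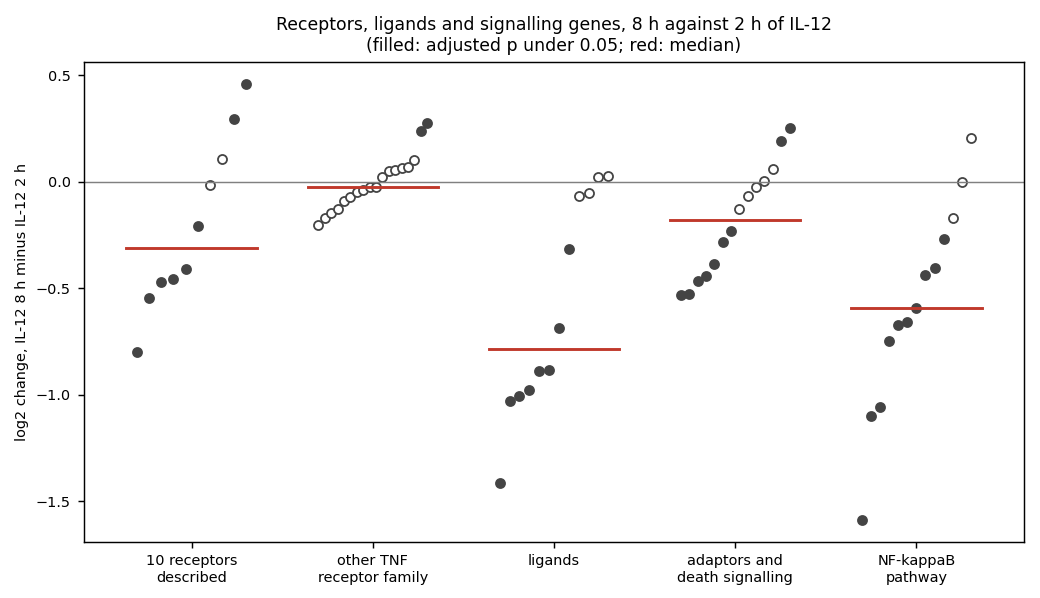
Log2 change from 2 h to 8 h of IL-12 for each measured gene of 5 lists, sorted within a list; filled points have an adjusted p under 0.05 and red lines are medians. The medians are -0.31 for the 10 receptors, -0.03 for 18 other receptors of the family, -0.79 for 12 ligands, -0.18 for 14 adaptors and -0.60 for 13 NF-kappaB pathway genes.

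In the same comparison, 2 of 9 T cell markers rose, with Cd3d at 0.30 ± 0.06 (adjusted p = 0.0058). These marker counts too stand against 6.36% of all genes lower and 6.27% higher. Among the 12 genes of regulatory T cells 4 fell and 0 rose, and Foxp3 itself had 0.03 ± 0.11 (adjusted p = 0.904). Among markers of other cells 0 of 12 for macrophages and 0 of 2 for CD8 T cells passed, 1 of 9 B cell and 1 of 10 dendritic cell markers fell, and 1 NK marker rose and 1 fell of 7.

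The genes whose values ran most like each receptor over the 12 arrays were found by Pearson correlation, as a description of arrays that share groups and runs. Ifng, the interferon-gamma gene, came nearest to Tnfrsf25 (r = 0.942). Rsad2, an interferon-stimulated antiviral gene, came nearest to Cd40 (r = 0.976), Arid5a (r = 0.979) and the STAT5 target Cish (r = 0.963) to Tnfrsf9, and Atf3 and Rnf19b (both r = 0.963) to Tnfrsf4. For Fas they were Rgs1 (r = 0.964) and the costimulator gene Icos (r = 0.938), for Tnfrsf8 Mmachc (r = 0.984) and for Tnfrsf14 Ccnf (r = 0.966). Tnfrsf18 had Rmdn3 (r = 0.948), Tnfrsf1b H2bc4 (r = 0.947) and Cd27 Zdhhc3 (r = 0.929). Among the 10 receptors themselves the closest were Tnfrsf1b with Fas (r = 0.939) and Tnfrsf4 with Tnfrsf18, and the farthest apart Tnfrsf1b with Tnfrsf14 (r = -0.678).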

How the data were processed

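The values the authors deposited are linear intensity, 1 per array for each of 24922 probe sets. RMA and Affymetrix Power Tools are named, per the submitters' processing notes. Their versions, the annotation and the build were not given in the sources used here. RMA equalises the distributions of the arrays, and median intensity lay between 160.6 and 167.3. The log2 of each deposited value was taken with no further normalization. Platform annotation held 1 symbol for 21425 probe sets, several for 1399 and none for 2098; the brightest of a gene's probe sets stood for it, which left 19752 genes. Genes without such a probe set, among them Traf3, Ripk1 and Nfkb1, were not analysed here. No columns belonged to other samples, and the small number of arrays limits the precision.

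All 12 arrays were fitted together, with a mean per group and the run of title numbers as a covariate (limma 3.58.1, R 4.3.3, 7 residual and 6.84 prior degrees of freedom). A second fit with means of each group within each run gave the run difference and the within-run changes (6 residual degrees of freedom); the within-run tests were added after the data were seen. Tests were two-sided, and genes whose p, adjusted by Benjamini-Hochberg across the 19752, was under 0.05 were called. Log2 changes are ± SE. The fit was tested on simulated data. Figures were drawn with Python 3.11.15 and matplotlib 3.10.9.

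The receptors and the lists were chosen with earlier results of these data known. The naming rule took all 10 receptors, up to 4 called genes of each other list by p, fixed cell markers, and the 2 genes nearest to each receptor by correlation. Tnfsf4, Tnfsf18, Cd70, Tnfsf8 and Btla at 8 h against 2 h fall outside it and were named after their values were seen.

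IL-12 2 h and 8 h arrays share the numbers 2, 3, 5 and 6. Deviations from group means of same-numbered arrays correlated at 0.30 to 0.52, and those of different numbers in the same run at 0.41 to 0.50. The main fit holds no pairs, and the number was a block in a further fit alone. Once run means were taken out as well the correlations of same-numbered arrays were -0.26 to 0.03, so what the numbers share is mainly the run.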

Additional observations from a re-analysis of the deposited data

Results flagged for a closer look

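The change from 2 h to 8 h of IL-12 differed between the runs of numbers for 3 receptors, by a test of the difference itself. The change in numbers 2 to 4 minus that in 5 to 8 was a log2 of -1.51 for Cd40, -0.79 for Tnfrsf9 and -0.54 for Tnfrsf4. For Cd40 the difference lies in the IL-12 2 h arrays, and for Tnfrsf9 in the 8 h arrays. The run cannot be told apart from whatever the title numbers stand for. No single array lay apart from its group in the 20 sets of values checked (10 receptors in each IL-12 group). This check looks for 1 array apart and cannot flag a group split by run, as for Cd40 at 2 h or Tnfrsf9 at 8 h.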

How the results depend on the processing

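With the title number as a replicate block the receptors called between 2 h and 8 h were 4 in place of 8, with 6.31% of all genes in place of 12.6%. Without the run term the count of receptors called was 4 for 8 h against 2 h, 0 for 8 h against untreated and 0 for untreated against baseline. That fit called 4.41%, 1.23% and 0.582% of all genes, where the main fit called 12.6%, 3.16% and 10.2%. With the macrophage marker mean in the model, 5, 0 and 0 were called in these comparisons and 0 for the run. Of all genes that fit called 7.61%, 0.415%, 0.132% and 0%, so its counts of 0 say little of the receptors. With arrays numbered 5 to 8 alone 0 were called for 8 h against 2 h and 0 against untreated, with 1.84% and 1.62% of all genes. The within-run contrasts that borrow the spread of all arrays, added after the data were seen, gave 2 and 3, with 5.61% and 4.26%. Pooling the baseline array with untreated cells gave 0 for 8 h against untreated, with 0.456% of all genes. Cd40 changed sign between 2 h and 8 h, to 0.025, in numbers 5 to 8, both fitted alone and with the spread of all arrays. Leaving out 1 array gave 5 to 8 receptors for 8 h against 2 h, 0 to 2 for 8 h against untreated, 2 to 4 for untreated against baseline, 2 to 3 for the run, 2 to 3 for the run difference and 0 for 2 h against untreated. With 1 IL-12 array left out, 7.72% to 11.8% of all genes were called for 8 h against 2 h. For 8 h against untreated the share was 2.14% to 3.36%, and for untreated against baseline 8.9% to 11.2%. For the run it was 18.8% to 24.6%, and for 2 h against untreated 0.0456% to 0.0709%. Leaving out an IL-12 2 h array numbered 2, 3 or 4 gave 0.861% to 1.17% for the run difference. Quantile normalization, the filter on dim genes, the mean of probe sets and a variance trend kept each count of receptors within 1.5 times. The cause of these differences between fits was not tested.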

Other observations

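Of the 18 other genes of the receptor superfamily, 3 rose and 0 fell between the baseline array and untreated cells at 2 h. All counts of this section stand against 6.28% of all genes higher and 3.96% lower. The decoy TRAIL receptor gene Tnfrsf23 had the largest change, a log2 of 1.50 ± 0.13 (limma adjusted p = 1.29e-05). Tnfrsf10b, the death-inducing TRAIL receptor gene, rose by 0.87 ± 0.11 (adjusted p = 0.000261) and Tnfrsf26 by 0.53 ± 0.12 (adjusted p = 0.0132). In the same comparison 7 of 12 ligand genes rose and 0 fell, with Cd40lg at 2.60 ± 0.31 (adjusted p = 0.000152), Tnfsf4, the OX40 ligand gene, at 1.83 ± 0.18 (adjusted p = 3.05e-05), Tnfsf14 at 1.63 ± 0.18 (adjusted p = 8.71e-05) and Tnfsf8, the CD30 ligand gene, at 1.54 ± 0.25 (adjusted p = 0.00127). Of 13 NF-kappaB pathway genes 10 rose and 0 fell, and of 14 adaptor genes 6 rose and 1 fell. The baseline group is 1 array.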
